A study of Mus musculus with 27 samples.

Results

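Glo1 encodes glyoxalase I, an enzyme of the glutathione-dependent route that clears methylglyoxal, and its RNA was measured here in whole brain of C57 and DBA mice. The members are all probe sets that the platform annotation gives to Glo1 on the arrays whose titles end in a plain number. They are 2 probe sets, 93269_at and 93268_at, of 12488 on the array, and Glo1 is 1 of 8251 named genes outside the array controls. The groups were 5 untreated male C57 mice and 4 untreated DBA mice, 10 weeks old, with 1 array taken as 1 animal. In the labels the strain names are C57BL/2 and DBA/2J. They name a sex for the C57 mice only, so an effect of sex and one of strain cannot be told apart. The other 18 arrays of the series, on another platform, carried 0 probes annotated to Glo1 and were not used here.

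Methylglyoxal is a reactive dicarbonyl that forms mainly as a by-product of glycolysis, from the triose phosphates, and that modifies arginine and lysine residues of proteins. Glyoxalase I converts its adduct with glutathione to S-lactoylglutathione, and glyoxalase II, encoded by Hagh, releases D-lactate and gives glutathione back. In mouse brain Glo1 has been studied for its relation to anxiety-like behaviour, and methylglyoxal has been described as an agonist of GABA-A receptors. Glo1 lies on chromosome 17, in a segment that other work found duplicated in some inbred strains.

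The promoter window of Glo1 is shown because a difference in its RNA is the subject of the results. It comes from the RefSeq promoter table of build GRCm38.p6 (chr17:30612610-30612909, minus strand), which is a C57BL/6J genome and does not show DBA sequence, and it runs 5′ to 3′ from 250 bases before the start site to 50 bases after it.
Glo1 promoter: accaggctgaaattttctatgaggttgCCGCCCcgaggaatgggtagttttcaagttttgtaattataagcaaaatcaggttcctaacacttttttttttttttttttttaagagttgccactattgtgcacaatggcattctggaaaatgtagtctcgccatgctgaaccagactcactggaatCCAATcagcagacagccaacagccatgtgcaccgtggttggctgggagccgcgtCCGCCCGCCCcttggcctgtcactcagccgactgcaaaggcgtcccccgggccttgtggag
Capitals mark matches to the motifs searched on both strands. The CCAAT box (CCAAT) matched 1 time, from base -65 to base -61 before the start site, and 37.4% of the 32851 windows of this length in the table hold it. The GC box (GGGCGG, read here on the other strand as CCGCCC) matched 3 times, of which the copies from -11 to -6 and from -7 to -2 overlap, and 35.7% of windows hold it. The TATA box (TATAAA) and the core of the antioxidant response element (TGACNNNGC), which the redox factor Nrf2 binds, had 0 matches in this window. The latter are held by 13.6% and 12.4% of windows. The window had 11 CpG dinucleotides, against a median of 7 over all windows, and 49.7% of its bases were G or C.

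Arrays had been scaled to 1 target before deposit, and their median intensities lay between 160 and 198. Of 10 neuron markers 9 were on the array and all 9 were bright enough to test. Their summed intensity was 46148 to 48563 in C57 and 44901 to 52384 in DBA. Summed intensities of 6 tested oligodendrocyte markers were 21003 to 28682 in C57 and 20839 to 24684 in DBA, and those of 8 microglia markers 6106 to 7524 and 6140 to 6651. Choroid plexus and ependyma markers (4 tested) summed to 1394 to 3815 in C57 and 3758 to 4944 in DBA. Astrocyte markers (7 tested) summed to 20927 to 25506 and 21650 to 24368, blood markers (3 tested) to 5450 to 9621 and 4370 to 7671, and pituitary markers (6 tested) to 682 to 1328 and 837 to 1170. By limma at an adjusted p under 0.05, 2 of the 8 microglia markers and 1 of the 6 oligodendrocyte markers passed at any set, all lower in DBA, against 2.8% of all genes, and none passed as higher. They were C1qb (-0.85 ± 0.12 at 96020_at on the log2 scale, adjusted p = 0.00343) and C1qc (-0.65 ± 0.13, adjusted p = 0.0318), which encode complement C1q chains, and Mobp, a myelin protein gene, at 99046_at (-0.84 ± 0.12, adjusted p = 0.00416). The other 3 Mobp sets differed by -0.35 to -0.11 and did not pass. By the brightest set of each gene the median log2 difference was -0.38 for the oligodendrocyte list, with 1 of 6 above 0, and -0.17 for the microglia list, with 2 of 8 above 0. None of the neuron, astrocyte, choroid plexus and ependyma, blood or pituitary markers passed, and 6 of these 29 had an unadjusted p under 0.05 at their brightest set, against 12.3% of all genes. The part of these cell types in the Glo1 difference was not tested, and in whole brain RNA fewer cells of a type and less RNA per cell cannot be told apart. As a measure of RNA quality, the control probe sets of Gapdh for its 3′ and 5′ parts were compared, and their log2 ratio (3′ over 5′) ran from -0.29 to -0.19 in C57 and from -0.44 to -0.32 in DBA. The same ratio for beta-actin overlapped, at 0.50 to 0.91 and 0.52 to 0.66. Their part in the results was not tested either.

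Glo1 signal was higher in DBA brain. Probe sequences were not at hand, so whether the probes of this or any other gene match both strains equally was not tested. At 93269_at, the brighter probe set, the C57 animals 1 to 5 had intensities of 1698, 1963, 1778, 2086 and 1995. The DBA animals 1 to 4 had 3995, 4557, 3344 and 4484. The lowest DBA animal lay above the highest C57 animal by a wide margin, and C57 varied less than DBA in log2 intensity (SD 0.12 and 0.21, n = 5 and 4). Geometric means were 1898 in C57 and 4065 in DBA, a 2.14-fold rise with a 95% interval of 1.77 to 2.59 (log2 difference 1.10 ± 0.12 SE, adjusted p = 0.000842 by limma with Benjamini-Hochberg adjustment over all probe sets tested).

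**Figure D1:**
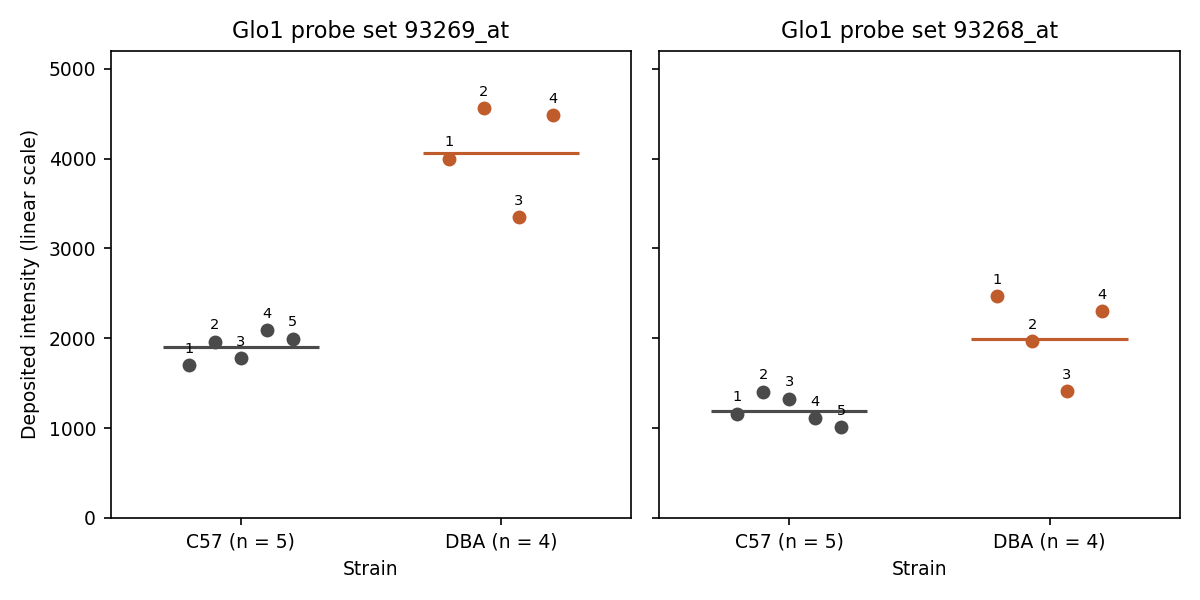
Deposited intensity (linear scale) of the 2 Glo1 probe sets in each animal of C57 (n = 5) and DBA (n = 4); points are animals with their numbers, and lines are geometric means. At 93269_at the C57 animals sit between 1698 and 2086 and the DBA animals between 3344 and 4557, while at 93268_at DBA animal 3 (1408) sits just above the highest C57 animal (1403).

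At 93268_at, the dimmer probe set, the direction was the same and the call was not made. The C57 animals 1 to 5 had intensities of 1156, 1403, 1327, 1110 and 1007. The DBA animals 1 to 4 had 2466, 1963, 1408 and 2301. The strains did not overlap, but DBA animal 3 stood next to the highest C57 animal. The ratio of geometric means (1192 and 1990) was 1.67, with a 95% interval of 1.27 to 2.20 (log2 difference 0.74 ± 0.18, adjusted p = 0.0670 by limma). Without DBA animal 3 the log2 difference was 0.91 and the adjusted p 0.0124, and over the animals left out in turn it ran from 0.64 to 0.91 with adjusted p of 0.0124 to 0.183. With the dimmest 50% of probe sets left out the adjusted p was 0.0260, and with a robust variance model that follows intensity it was 0.0173.

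An exact 2-sided permutation test over the 126 splits of the animals gave p = 0.00794 at either probe set, the smallest p these group sizes can give. Over the array, 233 of 9316 probe sets tested passed the threshold of adjusted p under 0.05, which is 2.5%, with 83 (0.891%) higher and 150 (1.61%) lower in DBA. The strains did not overlap at 6.45% of probe sets. By p, 93269_at stood at place 57 of the 9316 sets and 93268_at at place 276. By size, 57 sets had a larger log2 rise in DBA than 93269_at and 177 a larger one than 93268_at. The within-strain SD of log2 intensity was 0.16 at 93269_at and 0.28 at 93268_at, against a median of 0.24 over all sets tested.

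To test whether the strain difference had the same size at both probe sets, the log2 ratio of 93269_at to 93268_at was taken on each array. It was 0.55, 0.48, 0.42, 0.91 and 0.99 in C57 animals 1 to 5 and 0.70, 1.21, 1.25 and 0.96 in DBA animals 1 to 4. The strains overlapped, with C57 animals 4 and 5 inside the DBA range. The mean ratio differed by 0.36 between the strains (0.67 ± 0.26 SD in C57, n = 5, and 1.03 ± 0.26 SD in DBA, n = 4, exact 2-sided permutation p = 0.0794). With 1 animal left out this difference ran from 0.29 to 0.47 and its exact permutation p from 0.0536 to 0.161. Averaged over both sets, log2 intensity was 10.55 ± 0.10 SD in C57 (n = 5) and 11.47 ± 0.26 SD in DBA (n = 4), a difference of 0.92.

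DBA animal 3 was the lowest DBA animal at both sets, by 0.28 below the strain mean on the log2 scale at 93269_at and by 0.50 at 93268_at (deviations -0.28 and -0.50). Its array had a median intensity of 180, within the range of the other arrays, and the lowest 3′ to 5′ log2 ratio of Gapdh (-0.44). C57 animals 1 and 3 were the lowest at 93269_at and had the highest array medians of their strain (198 and 191, against 160 to 169 in the other C57 animals). At 93268_at this order was not seen. There C57 animals 1 and 3 deviated by -0.04 and 0.15, and animals 4 and 5 were the lowest (-0.10 and -0.24). The part of array scaling in these deviations was not tested.

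To see whether the rise held relative to other RNAs of the same array, 93269_at was set against comparators chosen after the Glo1 values were known. Only differences of such ratios between the strains are read, not the levels of the genes. Relative to the mean log2 intensity of 16 glycolysis genes, Glo1 was 1.08 higher in DBA on the log2 scale (SD 0.04 in C57 and 0.23 in DBA), nearly as without this correction. The mean of the glycolysis genes itself differed by 0.02 (exact permutation p = 0.778). Relative to Tpi1, which encodes triosephosphate isomerase and acts on the triose phosphates that methylglyoxal comes from, the difference was 1.06. Relative to Hagh it was 1.40, and the Hagh values themselves lay lower in DBA. All 5 C57 animals lay below all 4 DBA animals for each of these ratios, and for those to the chromosome neighbours 1700097N02Rik (1.25) and Cmtr1 (0.87). For each of these 5 comparators the exact 2-sided permutation p was 0.00794. It was 0.00953 adjusted over the 6 within-array comparisons made, the ratio between the Glo1 sets included. All 5 ratios reuse the 93269_at values, which alone gave the same unadjusted p by this test. The ratios are therefore not separate support for the rise.

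**Figure D2:**
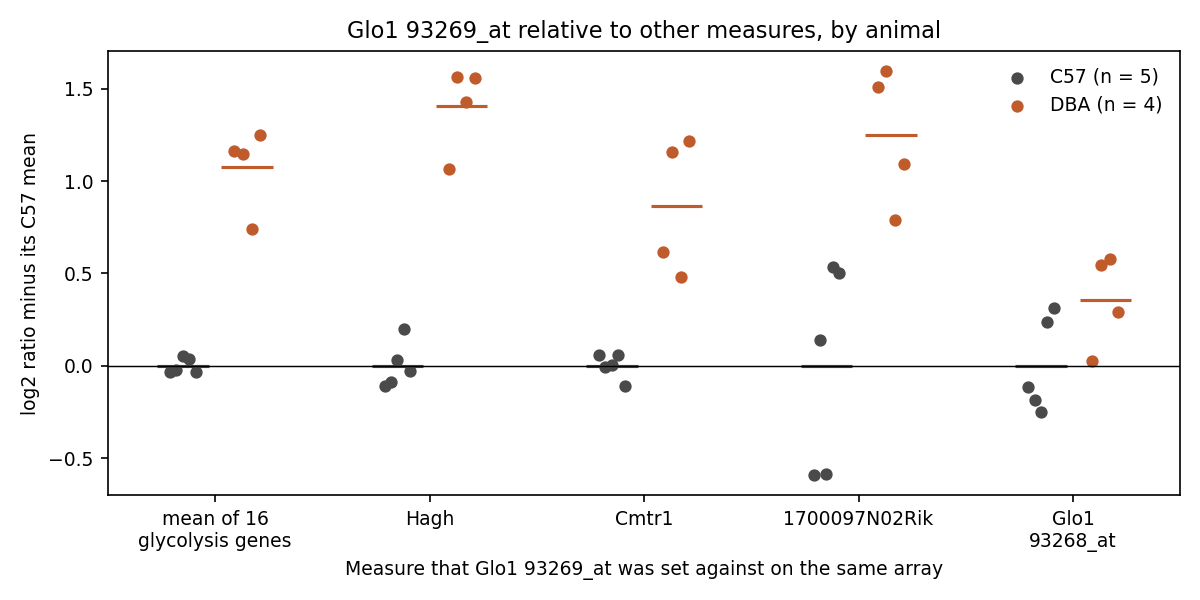
Log2 ratio of Glo1 93269_at to other measures of the same array, minus the C57 mean of that ratio, for each C57 (n = 5) and DBA animal (n = 4); short lines are strain means. DBA animals lie above all C57 animals for the glycolysis mean, Hagh, Cmtr1 and 1700097N02Rik, with mean differences of 1.08, 1.40, 0.87 and 1.25, and overlap with them for the other Glo1 probe set.

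Among the measured genes nearest to Glo1 on chromosome 17, none that was tested passed as higher in DBA. In the RefSeq order of assembly GRCm38.p6, the 8 nearest measured genes on each side were taken, 16 in all, of which 13 were bright enough to test at 16 probe sets. By the brightest set of each gene the median log2 difference was -0.07, over a range from -0.27 to 0.44, against a median of 0.01 over all 6864 genes tested. Only 1 of the 13 passed at any set, and it was lower in DBA, against 2.8% of all genes that passed at any set and 2.73% of the 439 probe sets tested for this chromosome.

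Cmtr1, an mRNA cap methyltransferase gene and the nearest measured neighbour on one side, had intensities of 537 to 708 in C57 and 635 to 858 in DBA. These overlapped, and the log2 difference was 0.23 ± 0.13 (95% interval -0.06 to 0.52, adjusted p = 0.543). 1700097N02Rik, on the other side between Glo1 and Dnah8, had 278 to 527 in C57 and 277 to 416 in DBA, with a difference of -0.15 ± 0.23 (-0.67 to 0.37, adjusted p = 0.870). Both upper bounds lie below the lower bound of 93269_at, 0.82, and above that of 93268_at, 0.34. Of the genes known from other work to lie in the duplicated segment, Dnah8, an axonemal dynein heavy chain gene, was below the brightness limit of 35.4 at both of its sets (geometric means of 16.3 and 6.24 in C57, 21.7 and 7.78 in DBA). Btbd9 and Glp1r had no probe set with 1 gene name. The copy number segment list thus had 1 tested gene of 4, Glo1 itself. 1700097N02Rik, between Glo1 and Dnah8 in the RefSeq order, was tested as given above but is not on that list.

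Further out, Cdkn1a, which encodes the cell cycle inhibitor p21, passed at 94881_at, where it was 1.73-fold lower in DBA (-0.79 ± 0.11, adjusted p = 0.00347). Its C57 animals ran from 235 to 287 and its DBA animals from 139 to 172. Its other set, 98067_at, differed by 0.05 ± 0.18 (adjusted p = 0.946), so the sets of this gene did not give 1 direction. Pim1, a serine/threonine kinase gene, also had sets with unlike differences, but none of them passed. 99384_at had 13.1 to 105 in C57 and 116 to 135 in DBA (1.53 ± 0.49, adjusted p = 0.194), and the brighter 104533_at differed by -0.12 ± 0.13 (adjusted p = 0.810). Abcg1, a lipid transporter gene, differed by 0.44 ± 0.26 (adjusted p = 0.566), with 1823 in DBA animal 3 against 696 to 1063 in the other DBA animals.

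The remaining neighbours did not pass at any tested set. Log2 differences were -0.01 ± 0.15 for Rnf8, a ubiquitin ligase gene, -0.27 ± 0.15 for Mtch1, -0.11 ± 0.12 for BC004004 and -0.23 ± 0.16 for Stk38, a kinase gene. Those of Srsf3, a splicing factor gene, were 0.01 ± 0.14 and -0.01 ± 0.20 at its pair of sets. On the far side they were 0.07 ± 0.41 for Tff1, -0.07 ± 0.19 for Rsph1 and -0.09 ± 0.10 for Pde9a, a cGMP phosphodiesterase gene. Tff2 and Tff3 were below the brightness limit.

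**Figure D3:**
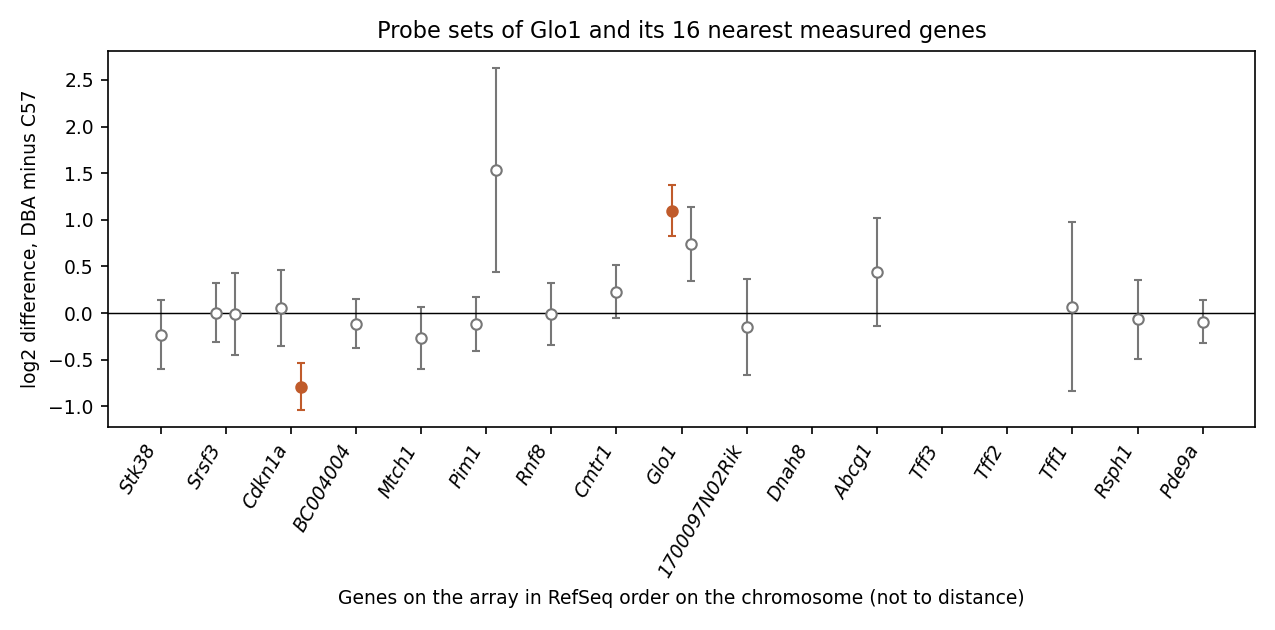
Log2 difference, DBA minus C57, of each tested probe set of Glo1 and its 16 nearest measured genes in RefSeq order; bars are 95% intervals, filled orange points passed an adjusted p under 0.05, and genes without a point were below the brightness limit. Glo1 93269_at (1.10) and Cdkn1a 94881_at (-0.79) passed, and the genes next to Glo1 lie at 0.23 and -0.15.

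No other gene of the glyoxalase route passed the threshold. Of 7 listed genes 5 were tested, and Glo1 was the 1 that passed, by limma, against 2.8% of all genes. At their brightest set, 2 of the 5, Glo1 and Hagh, had an unadjusted p under 0.05, against 12.3% of all genes. Hagh, the glyoxalase II gene, had 1312, 1494, 1245, 1302 and 1454 in C57 animals 1 to 5. It had 1363, 1100, 890 and 1089 in DBA animals 1 to 4. DBA animal 1 lay inside the C57 range and the other DBA animals below it, for a log2 difference of -0.31 ± 0.13 (95% interval -0.60 to -0.01, adjusted p = 0.383).

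Park7, which encodes DJ-1, a protein with reported glyoxalase activity, had 3448 to 4272 in C57 and 2292 to 3722 in DBA. It differed by -0.32 ± 0.15 (adjusted p = 0.431). Glod4, which encodes a protein with a glyoxalase domain, differed by 0.10 ± 0.14 (95% interval -0.22 to 0.42, adjusted p = 0.853). Lactb2, of the same metallo-beta-lactamase fold as glyoxalase II, differed by 0.50 ± 0.27 at 97257_at (adjusted p = 0.517) and by 0.73 ± 0.38 at 97258_at. Haghl and Ldhd, the latter encoding D-lactate dehydrogenase, had no probe set with 1 gene name.

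Among other enzymes that reduce or oxidize methylglyoxal or related carbonyls, 3 of 12 tested genes passed, 1 higher and 2 lower in DBA, beside 2.8% of all genes. Of the 16 genes listed, Akr1b3, Akr1b7, Akr1c12 and Dcxr had no probe set with 1 gene name. The median log2 difference of this list was 0.13, against 0.01 over all genes, and 9 of the 12 lay above 0, against 3572 of 6864 of all genes. At their brightest set 4 of the 12 had an unadjusted p under 0.05, against 12.3% of all genes. Cbr3, a carbonyl reductase gene, had 160, 199, 119, 180 and 161 in C57 animals 1 to 5. It had 245, 302, 334 and 253 in DBA animals 1 to 4. The strains did not overlap, and Cbr3 was 1.74-fold higher in DBA (0.80 ± 0.16, adjusted p = 0.0305). Cbr3 missed the threshold when C57 animal 1, 4 or 5, or DBA animal 2 or 3, was left out (adjusted p 0.0524 to 0.105). It also missed it with quantile normalization (0.0766), median centring (0.0775), dim probe sets kept (0.0643) or the animal number as a block (0.249).

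Both enzymes that fell were aldehyde dehydrogenases. Aldh9a1, which oxidizes aminoaldehydes, had 364, 350, 416, 279 and 322 in C57 animals 1 to 5. It had 82.7, 47.1, 43.2 and 83.4 in DBA animals 1 to 4. No DBA animal came near the C57 range, and the signal was 5.61-fold lower in DBA (-2.49 ± 0.23, adjusted p = 0.000244 by limma). The lowest DBA values lay not far above the brightness limit of 35.4. Its only set, 96243_f_at, carries a suffix for sets that match families of similar sequences. Aldh7a1, an aldehyde dehydrogenase of lysine breakdown, was 1.62-fold lower at 97450_s_at (-0.70 ± 0.12, adjusted p = 0.00925 by limma). Intensities there were 1557 to 1866 in C57 and 938 to 1246 in DBA. The adjusted p at 97450_s_at was 0.0502 with median centring and 0.156 with the animal number as a block. The Aldh7a1 set 97449_at differed by -0.65 ± 0.14 (adjusted p = 0.0452). At 97449_at the threshold was missed whichever animal was left out, except C57 animal 3 (adjusted p 0.0603 to 0.113). It was also missed with quantile normalization (0.0512), median centring (0.150), dim probe sets kept (0.0887) or the animal number as a block (0.324).

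The other 9 tested genes of this list did not pass. By their brightest sets 8 of the 9 lay above 0, from -0.04 ± 0.12 for Akr1a1, an aldehyde reductase gene (95% interval -0.30 to 0.22), to 0.58 ± 0.18 for Akr7a5, an aldo-keto reductase gene. Akr7a5 had 586 to 962 in C57 and 887 to 1386 in DBA, which overlapped (unadjusted p = 0.00793 and adjusted p = 0.159 by limma). Aldh2, the mitochondrial aldehyde dehydrogenase gene, differed by 0.10 ± 0.10 at its brightest set, 96058_s_at, by 0.32 ± 0.11 at 96057_at (adjusted p = 0.246) and by -0.13 ± 0.13 at 161997_f_at. The remaining 6 differed by 0.01 (Aldh1a1) to 0.35 (Aldh3a1) at their brightest sets. Genes in this paragraph were chosen after their values were seen.

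**Figure D4:**
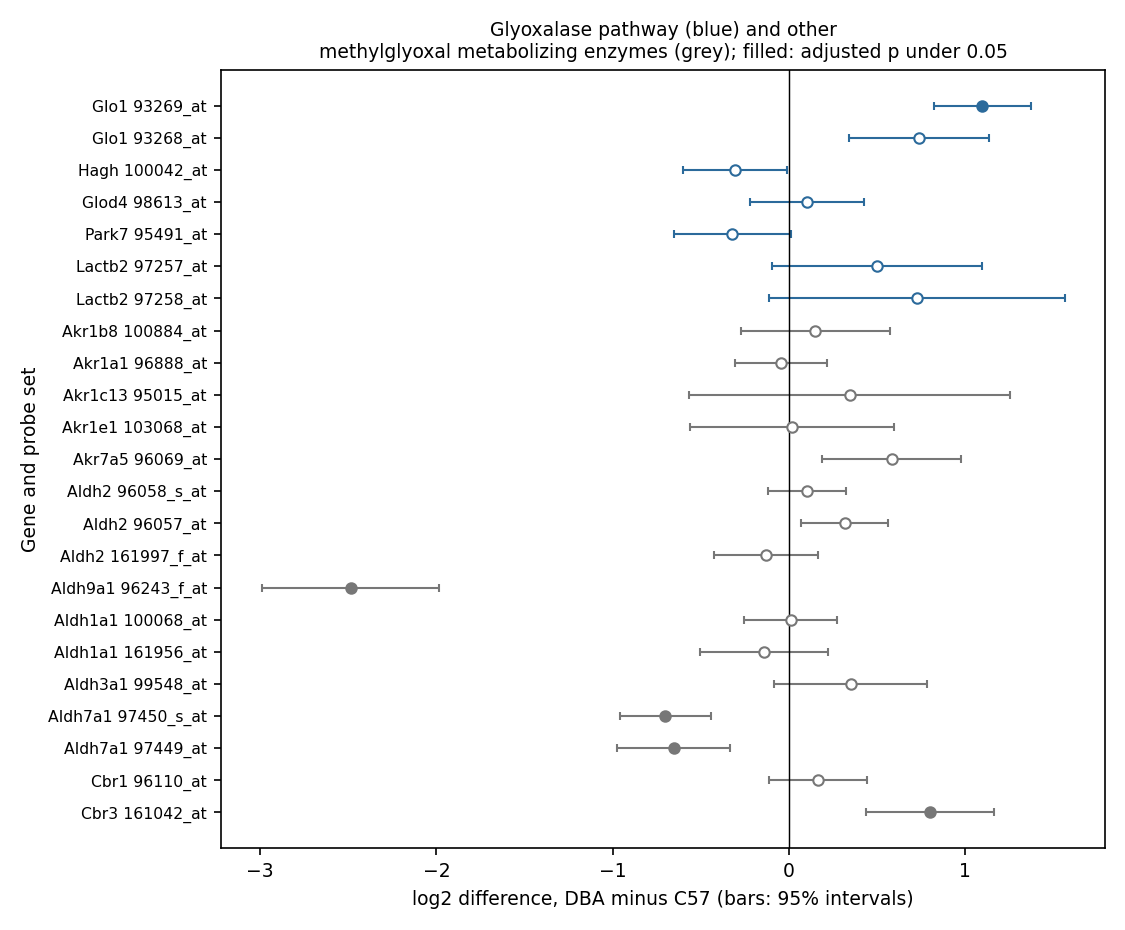
Log2 difference, DBA minus C57, of each tested probe set of the glyoxalase route (blue) and of other enzymes that act on methylglyoxal or related carbonyls (grey); bars are 95% intervals and filled points passed an adjusted p under 0.05. Glo1 93269_at (1.10) and Cbr3 (0.80) passed as higher in DBA, and Aldh9a1 (-2.49) and both Aldh7a1 sets (-0.70 and -0.65) as lower.

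The source of methylglyoxal and the supply of glutathione were measured through further lists. Of 16 tested glycolysis genes 0 passed by limma, against 2.8% of all genes, and 1 had an unadjusted p under 0.05, against 12.3%. Their log2 differences ran from -0.28 to 0.20 with a median of 0.03. The lowest was that of Ldha, the lactate dehydrogenase A gene (-0.28 ± 0.12, adjusted p = 0.370). Tpi1 differed by 0.04 ± 0.10 (95% interval -0.18 to 0.25).

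Of 8 tested genes of glutathione supply 0 passed by limma, against 2.8% of all genes, and 1 had an unadjusted p under 0.05, with a median of -0.05. At 12.3% over all genes, a count of 1 in 8 is the background share. The gene was Gsr, which encodes glutathione reductase and, like Glo1, has been studied in anxiety-like behaviour of mice. Gsr had 567, 479, 562, 461 and 407 in C57 animals 1 to 5. It had 678, 745, 682 and 663 in DBA animals 1 to 4. The strains did not overlap, the ratio was 1.41 and the log2 difference 0.49 ± 0.12 (adjusted p = 0.0771). The adjusted p was 0.0452 with quantile normalization, 0.0340 with the dimmest 50% of sets left out and 0.0402 with a variance model that follows intensity.

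Targets and regulators of Nrf2, the factor of the antioxidant response, had 0 of 16 tested members past the threshold by limma, 1 with an unadjusted p under 0.05 (Gsr again) and a median of 0.02, against 2.8% and 12.3% of all genes. Genes of receptors for glycated proteins had 0 of 4, by limma and at an unadjusted p under 0.05. The smallest p among them was that of Ager, the receptor for advanced glycation end products, at intensities of 31.2 to 61.7 in C57 and 36.2 to 70.7 in DBA (0.13 ± 0.27, adjusted p = 0.903). GABA-A receptor subunits had 0 of 8 past the threshold and 1 with an unadjusted p under 0.05, again the background share of 12.3%. The smallest p among them was that of Gabrg3 (0.59 ± 0.19, adjusted p = 0.190). A list of 26 genes studied in anxiety, Glo1 not among them, had 0 of 20 tested members past the threshold and 5 with an unadjusted p under 0.05, against 2.8% and 12.3% of all genes. Its median was 0.07, and Gsr had the smallest p.

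The genes whose values were most like those of Glo1 were found by Pearson correlation of log2 intensity with 93269_at over the 9 animals, which share arrays and the strain difference, and are given as a description. H2-D1, an MHC class I gene further along the same chromosome, was the most alike (97541_f_at, r = 0.99), followed by Alad, an enzyme of haem synthesis (0.98), Rfk, riboflavin kinase (0.97 at 101050_at), Gnb1, a G protein beta subunit (0.97 at 97458_at), and Mid1ip1 (0.96). Of 9316 sets, 102 were more like 93269_at than the other Glo1 set was (r = 0.86). H2-D1 97541_f_at had 57.7 to 78.2 in C57 and 286 to 404 in DBA (2.52 ± 0.14, adjusted p = 1.09e-05 by limma). DBA animal 3 was its lowest DBA animal. Genes picked by this likeness tend to share the direction and the animal order of Glo1, so neither is separate support. The 3 sets of H2-D1 did not give 1 size, since the brighter 97540_f_at differed by 1.16 ± 0.15 (adjusted p = 0.00198) and the brightest, 101886_f_at, by 0.17 ± 0.09 (adjusted p = 0.517). All 3 carry the suffix for sets that match families of similar sequences, so the MHC class I gene they read is uncertain. Rfk rose 1.94-fold in DBA (0.95 ± 0.13, adjusted p = 0.00347), with 809 to 969 in C57, 1732, 1892 and 1915 in DBA animals 1, 2 and 4, and 1294 in DBA animal 3. Mid1ip1 differed by 0.37 ± 0.09 and did not pass (adjusted p = 0.0591).

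Within the strains, on deviations from each strain mean, the most alike were Dock9 (r = 0.96), Reep1 (0.95), Arid1a, C1qc and Cdipt (0.94 each). Of these C1qc, a complement gene of microglia, was lower in DBA (-0.65 ± 0.13, adjusted p = 0.0318). C1qc missed the threshold when C57 animal 2, 4 or 5, or DBA animal 1, 2 or 3, was left out (adjusted p 0.0522 to 0.103). It also missed it with median centring (0.107) or dim probe sets kept (0.0656). The others differed by -0.44 ± 0.12 (Reep1, adjusted p = 0.137) to -0.10 ± 0.12 (Dock9, adjusted p = 0.828). The other Glo1 set had r = 0.41 on this measure, and 1453 sets had a higher value. With quantile normalization 1 of these 5 genes stayed among the leading 5, and of the 5 leading genes over all animals 2 stayed.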

How the data were processed

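The deposited table holds 1 linear intensity per probe set and array. Per the labels, cRNA from 5 ug of total RNA was hybridised; the sources used here name neither scanner software nor probe summary. The deposited intensities had a mean, without the top and bottom 2%, of 499.5 to 499.8 on all arrays, so each had been scaled to 1 target. Platform annotation gave 1 symbol to 10855 probe sets, updated by gene identifier for 10839. The 66 control sets were left out, intensities under 1.70 (1st percentile) were raised to it, log2 was taken and the dimmest 25% were dropped (limit 35.4), leaving 9316. Strains were compared with limma 3.58.1 in R 4.3.3 (lmFit, eBayes, 2-sided, Benjamini-Hochberg), and ± is the standard error unless SD is named. The code was also run on simulated data with planted differences. Noise there was independent between probe sets, so that run is no check on the calls made here. Within-array ratios used exact permutation tests. Alternatives were scaling, floor, filter, variance model, animal number as block, 1 set per gene, threshold and each animal left out. The ratios of Glo1 to other genes, the glycolysis mean included, were added after seeing the data. Genes named are all glyoxalase and segment members, the 8 neighbours on each side, up to 5 passing members of each other list or else its smallest p, and 5 most alike by either measure; marker genes that passed were added after their values were seen. Glo1 and all lists were chosen with earlier results of these data known. Figures used matplotlib 3.10.9. The number of arrays limits the precision.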

Additional observations from a re-analysis of the deposited data

Results flagged for a closer look

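Of 118 groups of animals at the probe sets named, 5 had 1 animal that stood apart by the gap to its nearest neighbour over the range, where chance gives about 1 in 20. At the dim Lactb2 set 97258_at, C57 animal 4 was at 11.2 against 33.0 to 42.9 in the other C57 animals (share of the range 0.805). At Aldh7a1 97449_at, DBA animal 4 was at 646 against 724 to 730 (0.934). At H2-D1 97541_f_at, C57 animal 4 was at 78.2 against 57.7 to 62.8 (0.721). At Gnb1 97458_at, C57 animal 1 was at 344 against 469 to 516 (0.763). At Mid1ip1 95135_at, DBA animal 2 was at 2981 against 2756 to 2776 (0.905). No animal of either strain stood apart by this measure at either Glo1 set.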

How the results depend on the processing

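The Glo1 call at 93269_at held under every alternative run, with log2 differences of 1.04 to 1.19 (adjusted p up to 0.00509) when 1 animal was left out. At 93268_at the difference ran from 0.64 to 0.91 with 1 animal left out, and stayed 0.74 where the filter (dimmest 50% out) or the variance model brought it past the threshold. The number of calls was 185 to 231 with 1 animal left out (63 to 82 higher, 122 to 149 lower), 154 with 1 set per gene (53 higher), and 150 at an adjusted p under 0.01 (51 higher, 99 lower). Samples of the 2 strains share only a number: deviations of same-numbered animals correlated at -0.17 to -0.01. With the animal number as a block, 73 sets were called (26 higher, 47 lower), Glo1 93269_at differed by 1.12 (adjusted p = 0.0296) and 93268_at by 0.68 (adjusted p = 0.375). Called neighbours were 1 whichever animal was left out, and 0 under the block or with 1 set per gene. Called genes over the lists were 4, or 3 to 4 with 1 animal left out, and 2 under median centring or the block. The difference between the Glo1 sets stayed at 0.29 to 0.47. Of the 5 genes most alike, 3 to 4 stayed over all animals (2 with quantile normalization) and 0 to 4 by deviations (1). The cause of these changes was not tested. For single genes and lists, 464 repeats were classed as the same, 43 as weaker and 14 as stronger, and none reversed. A list that went from 3 called genes to 2 was classed as the same.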
